A study of Mus musculus with 3 samples.

Results

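Spi1 and the Cebp genes encode myeloid transcription factors, and their chromatin was measured here in hematopoietic stem cells (HSCs). The 7 members are the ETS-family genes Spi1 and Spib, and the C/EBP-family genes Cebpa, Cebpb, Cebpd, Cebpe and Cebpg, out of 21670 protein-coding genes of chromosomes 1 to 19 and X. Each locus was taken as the gene body with 100 kb on either side, divided into bins of 500 bp. The cells were long-term HSCs sorted as LSK CD48- CD150+ CD34- cells from the bone marrow of wild-type female mice, 8 weeks old, and how many mice were used is not stated. They came from 1 preparation, stained with antibodies and processed by DOGMA-seq, which reads open chromatin (ATAC), RNA and antibody tags from the same cell. Of 3757 barcodes called as cells, the 3108 with more than 3000 fragments in peaks were used (82.7%), and they held 37137164 ATAC fragments, with a median of 11442 and a range of 3970 to 194134 per cell. With 1 library there is no replicate, so no test was made between conditions. The intervals below are exact 95% binomial or Poisson intervals that cover counting error only.

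PU.1, the product of Spi1, is an ETS-domain factor required for monocytes, granulocytes and B cells, and its dosage in stem cells is set in part by an upstream regulatory element. Spi-B is its close relative, best known from B cells and plasmacytoid dendritic cells. The C/EBP proteins are basic leucine-zipper factors that bind DNA as dimers: C/EBPα drives entry into the granulocyte and monocyte path and has an enhancer downstream of its gene, C/EBPβ acts in emergency granulopoiesis and macrophages, C/EBPδ in acute-phase responses, C/EBPε in late granulocyte maturation, and C/EBPγ is a widely expressed partner that lacks a typical activation domain.

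The label of the cells was checked on markers. The main annotated starts of 7 of 9 HSC genes were open, against 59.9% of all protein-coding promoters, and their median level of 9.66 times the genome mean lay below that over all promoters (12.5). Levels varied widely, with Hlf (86.9), Meis1 (60.5) and Kit (54.9) highest, and with Mecom (0.801) and Ly6a (1.90) not open at that start. Of 5 B cell genes 1 was open (Ebf1, 11.6), and of 4 T and NK cell genes 1 was open (Gata3, 18.7). Of 7 erythroid and megakaryocytic genes 4 were open, led by Itga2b (54.3), Pf4 (44.2) and Gp1ba (39.8), while Klf1 (4.65), Gata1 (1.70) and Hbb-bt (0.951) were closed, and the median was 6.96. An open promoter is not evidence of transcription, and RNA counts per gene were not used here.

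The sequences of the elements that carry most of what follows are shown first. Except for the last, each is the window of 300 bp with the most transposase cut ends inside its element, on the plus strand of GRCm38 (mm10), read from the RefSeq genome sequence. The last is the RefSeq promoter of Spib, 250 bases before to 50 after its start on the minus strand of the same build. Capitals mark matches on either strand to 8 short motif strings. PU.1 was searched as GAGGAAGT and the core of other ETS factors as CCGGAAGT, which differ in their first letters and share the rest. The string for C/EBP proteins was TTGCNNAA, in which N stands for any base. The binding site of RUNX proteins was written as TGTGGT. For the zinc finger factors of the GATA family, such as the product of Gata2, it was AGATAA. The E-box of the basic helix-loop-helix factors was CAGCTG. AP-1, the dimer of Fos and Jun proteins, was searched by the string TGANTCA. Finally, the STAT string was TTCNNNGAA. In the windows shown, none of the matches of different motifs overlap. A match is a description of the letters and not evidence of binding.
Spi1 -13.0 kb, chr2:91082924-91083223: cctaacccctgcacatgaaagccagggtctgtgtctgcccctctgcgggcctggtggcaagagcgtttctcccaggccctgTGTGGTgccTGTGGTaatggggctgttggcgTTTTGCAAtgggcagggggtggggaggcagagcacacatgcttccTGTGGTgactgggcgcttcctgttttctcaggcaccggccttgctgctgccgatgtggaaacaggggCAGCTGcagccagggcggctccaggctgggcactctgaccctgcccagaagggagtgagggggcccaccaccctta
Cebpa +37.4 kb, chr7:35156553-35156852: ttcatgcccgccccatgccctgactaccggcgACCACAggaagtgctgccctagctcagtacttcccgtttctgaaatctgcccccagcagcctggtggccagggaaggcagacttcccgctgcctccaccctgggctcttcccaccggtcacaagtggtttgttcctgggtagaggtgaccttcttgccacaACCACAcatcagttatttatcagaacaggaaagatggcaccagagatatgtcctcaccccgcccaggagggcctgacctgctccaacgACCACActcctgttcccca
Cebpa +52.8 kb, chr7:35171908-35172207: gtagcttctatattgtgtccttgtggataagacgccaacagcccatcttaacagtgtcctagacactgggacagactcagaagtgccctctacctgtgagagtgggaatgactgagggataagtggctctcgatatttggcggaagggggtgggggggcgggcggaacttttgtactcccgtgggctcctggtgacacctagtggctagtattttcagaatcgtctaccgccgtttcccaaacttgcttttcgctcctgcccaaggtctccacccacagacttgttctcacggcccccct
Cebpe +6.2 kb, chr14:54705867-54706166: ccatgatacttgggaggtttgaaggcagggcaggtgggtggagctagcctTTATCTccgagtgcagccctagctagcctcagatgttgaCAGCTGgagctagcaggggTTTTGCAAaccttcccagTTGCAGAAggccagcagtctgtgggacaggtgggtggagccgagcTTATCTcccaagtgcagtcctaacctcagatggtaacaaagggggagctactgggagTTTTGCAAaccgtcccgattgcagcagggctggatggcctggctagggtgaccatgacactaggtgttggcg
Cebpb +88.6 kb, chr2:167777320-167777619: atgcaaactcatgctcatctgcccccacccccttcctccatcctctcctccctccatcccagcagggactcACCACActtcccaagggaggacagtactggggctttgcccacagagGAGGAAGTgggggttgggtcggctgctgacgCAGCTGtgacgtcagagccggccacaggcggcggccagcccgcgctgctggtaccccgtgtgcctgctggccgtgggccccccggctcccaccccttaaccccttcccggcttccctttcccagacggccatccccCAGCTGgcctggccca
Spib promoter, chr7:44532022-44532321, minus strand: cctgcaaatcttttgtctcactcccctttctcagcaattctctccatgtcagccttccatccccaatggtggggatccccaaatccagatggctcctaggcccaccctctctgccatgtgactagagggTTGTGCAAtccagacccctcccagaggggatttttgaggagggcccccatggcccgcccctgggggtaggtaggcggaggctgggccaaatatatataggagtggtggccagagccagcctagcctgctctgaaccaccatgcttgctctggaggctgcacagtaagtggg

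Positions are counted from 1 at the left end of each window. The Spi1 -13.0 kb window held 3 RUNX strings, at positions 82, 91 and 158, with 1 C/EBP string at 113 and 1 E-box at 225. The Cebpa +37.4 kb window also held 3 RUNX strings, at 33, 194 and 282, and none of the other 7 motifs. At least 1 RUNX string was present in 30.3% of the 42251 distal windows of the genome that were searched, and at least 3 in 0.944%. The number 3 was taken from the windows shown, so the latter share does not measure how unusual they are.

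The Cebpe +6.2 kb window held 3 C/EBP strings, at 109, 127 and 229, with 2 GATA strings at 51 and 172 and 1 E-box at 90. Part of the window recurs within it. Near-identical letters surround the GATA strings at 51 and 172, and likewise the C/EBP strings at 109 and 229, so these are not separate finds. At least 1 C/EBP string was present in 11.6% of all distal windows, and at least 3 in 0.045%. Here too the number 3 came from the window shown, so this share does not measure how unusual it is. The Cebpb +88.6 kb window had the only PU.1 string among the printed elements, at 118, with 1 RUNX string and 2 E-boxes; the PU.1 string was in 6.98% of all distal windows. The Cebpa +52.8 kb window matched none of the 8 strings.

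Over the 76 distal elements of the 7 loci, the share of windows with a motif lay near that of the genome for RUNX (31.6% against 30.3%), C/EBP (9.21% against 11.6%) and PU.1 (9.21% against 6.98%), and GATA strings were in 7.89% against 14.1%. RefSeq promoter sequences (250 bases before to 50 after the start) were matched for 4 members, Spib, Cebpa, Cebpb and Cebpg. Those of Cebpa, Cebpb and Cebpg held none of the 8 strings, and that of Spib held 1 C/EBP string, at 130. The C/EBP string was in 10.8% of the 32851 promoters of that length. GC content was 80.7% at Cebpb, 71.7% at Cebpg, 67.3% at Cebpa and 58.0% at Spib, against a median of 52.7% over all promoters.

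The 7 loci held many open bins. A bin was called open when it held at least 5 times the mean number of fragments per bin (9.99), that is at least 50, counting a fragment when either of its cut ends lay in the bin. Of the 2652 bins in the union of the loci, 313 were open (11.8%), against 2.55% of the 5118822 bins of the genome. Over 21755 loci drawn in the same way, for all genes annotated as protein-coding and also those without a protein-coding transcript, which have no main start, the median share was 4.40%. Touching open bins were joined into elements, which gave 102 elements in the loci, 76 of them distal, meaning that no main start of a protein-coding gene lay within 1000 bp.

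The loci differed widely in openness. The Cebpb locus was the most open, with 89 of 404 bins (22.0%), percentile 97.6 of loci. It was followed by Spib with 63 of 414 (15.2%), Spi1 with 58 of 468 (12.4%) and Cebpe with 49 of 405 (12.1%). Cebpa had 39 of 406 (9.61%) and Cebpg 30 of 422 (7.11%), and these windows overlap on chromosome 7, since the Cebpg promoter lies at -62.7 kb of Cebpa. The Cebpd locus was the least open, with 13 of 409 bins (3.18%), percentile 39.2. Many of the open bins belong to neighbors: the Spib window held 10 other protein-coding starts, Cebpe 8, Spi1 7, Cebpa and Cebpb 3 each, and Cebpd and Cebpg 1 each. Counting only bins of distal elements, Cebpb kept 60, Spi1 32, Spib and Cebpe 26 each, Cebpa 23, Cebpg 19 and Cebpd 3.

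**Figure D1:**
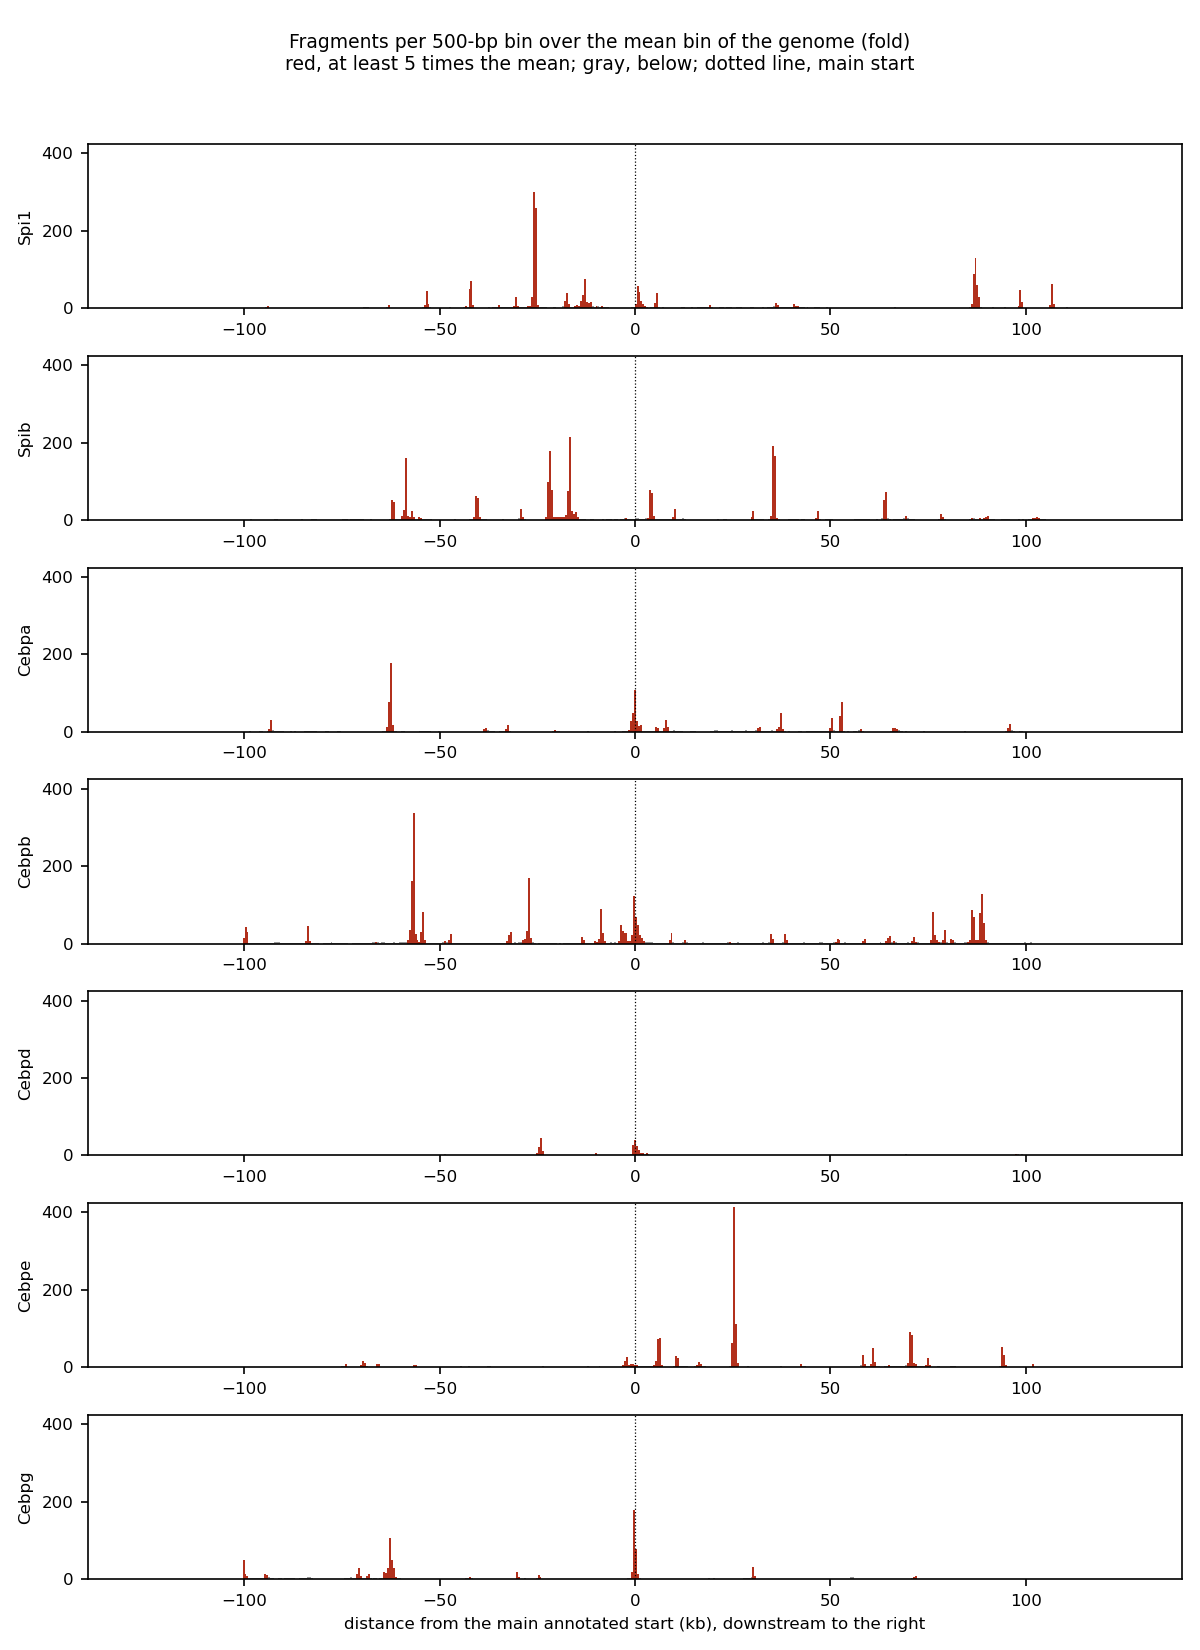
Fragments per 500-bp bin, as a fold of the mean bin of the genome (vertical axis), against distance in kb from the main annotated start of each member (horizontal axis, downstream to the right), with bins at or above 5 times the mean in red. The Cebpb panel has the most red bins (89) and the Cebpd panel the fewest (13), and the Spib panel has none at its start.

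Spi1 had an upstream element that was stronger than its annotated main start. Spi1 (ENSMUSG00000002111.8) lies on the plus strand of chromosome 2 at 91082390 to 91115756, and the main start, that of transcript Spi1-201, is at 91096096. The upstream element, chosen as the strongest one between 10 and 17 kb upstream, spanned chr2:91080501-91085000 and had its window of 300 bp with the most cut ends at -13.0 kb. Distances of elements are given to the center of that window throughout. It held 1445 fragments from 989 cells, 31.8% of cells (interval 30.2% to 33.5%). Its strongest bin, at -12.85 kb, held 759 fragments (76.0 times the mean), which is at percentile 97.0 of the 42254 distal elements of the genome ranked by strongest bin. The bins next to it held 347 fragments at -13.35 kb and 160 at -12.35 kb, so that the signal fell off on both sides.

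The annotation places this element in an intron of Spi1, because the starts of transcripts Spi1-202 and Spi1-204 lie inside it. It is therefore distal to the main start only. The nearest main start of a protein-coding gene was that of Slc39a13, 12.7 kb away, a zinc transporter gene. At -17.3 kb a smaller intergenic element held 537 fragments in 13.8% of cells (12.6% to 15.1%), and at -53.3 kb an element in an exon of Rapsn held 511 in 12.3% (11.1% to 13.5%).

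The main start of Spi1 itself was weakly open. The 1000 bp around it held 190 fragments, 9.51 times the mean and percentile 46.3 of promoters, in 5.60% of cells (4.82% to 6.47%). Set against this window, the strongest 1000 bp of the upstream element, with 927 fragments, had 4.88 times as many (4.17 to 5.73). The signal near the start was displaced downstream, however, with 104 fragments in the bin at 0.15 kb, 569 at 0.65 kb and 427 at 1.15 kb. With the promoter taken instead as the strongest 1000 bp within 2 kb of the start, a definition chosen after the data were seen, it held 839 fragments (42.0 times the mean) in 20.8% of cells (19.4% to 22.3%), and the ratio was 1.10 (1.01 to 1.21).

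**Figure D2:**
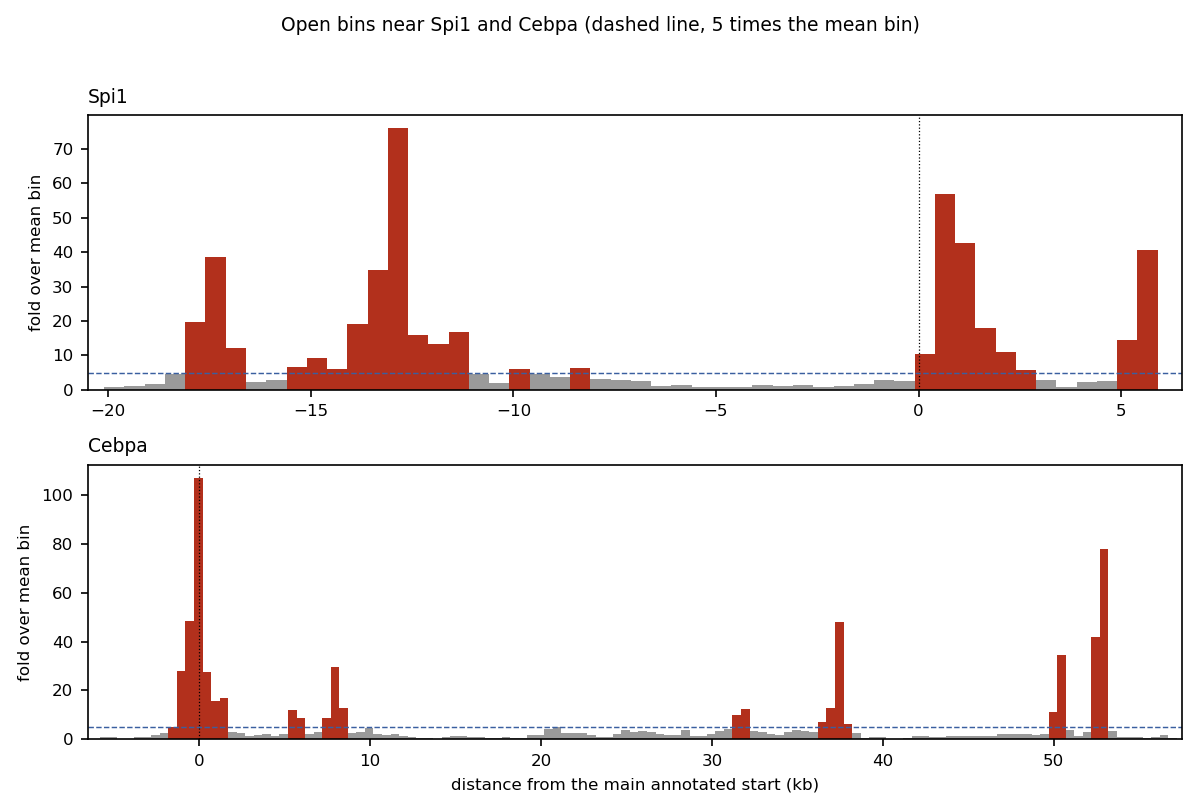
Fragments per 500-bp bin as a fold of the mean bin (vertical axes) against distance in kb from the main start (horizontal axes) for Spi1 and Cebpa, with open bins in red and the 5-fold line dashed. The upstream element of Spi1 peaks at -12.85 kb with 759 fragments and the signal at its start peaks at 0.65 kb with 569, whereas the Cebpa signal peaks at its start and again at 37.45 kb and near 52.8 kb.

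Spib, in contrast, was closed at its start. Spib (ENSMUSG00000008193.13) lies on the minus strand of chromosome 7 with its main start at 44532071. The promoter held 67 fragments, 3.35 times the mean, in 1.80% of cells (1.36% to 2.33%), and the strongest 1000 bp within 2 kb held 75 (3.75 times). No bin within 2 kb of the start held more than 42 fragments. The strongest distal element of the locus was nevertheless in the gene, over a coding exon at +4.0 kb (chr7:44527001-44529000), with 1183 fragments in 27.7% of cells (26.1% to 29.3%) and its strongest bin at percentile 97.1. The start of Mybpc2, a muscle myosin-binding protein gene, lies 3.4 kb from it and is nearer than that of Spib. An intergenic element at -29.1 kb held 308 fragments in 8.94% of cells.

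Cebpa was open at its promoter and along its downstream side. Cebpa (ENSMUSG00000034957.10) lies on the plus strand of chromosome 7 with its main start at 35119303. The promoter held 1208 fragments, 60.5 times the mean and percentile 79.4, in 29.3% of cells, and the bin at -0.05 kb alone held 1071. The downstream enhancer, chosen as the strongest element between 33 and 41 kb downstream, spanned chr7:35155501-35157500 in intergenic sequence, with its strongest 300 bp at +37.4 kb. It held 589 fragments from 458 cells, 14.7% of cells (13.5% to 16.0%), and its strongest bin of 482 fragments (48.2 times the mean) stood at percentile 93.4 of distal elements. Its strongest 1000 bp had 0.435 times the fragments of the promoter (0.392 to 0.483).

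The downstream enhancer was not the strongest distal element of Cebpa. An intergenic element at +52.8 kb (chr7:35171501-35172500) held 877 fragments in 23.0% of cells (21.6% to 24.6%), and the 2 intervals do not overlap. It was rich in short fragments: 70.1% were shorter than the DNA of a nucleosome, against 53.1% at +37.4 kb and 45.6% of all fragments. Its nearest protein-coding start was that of the amino acid transporter gene Slc7a10, 14.3 kb away. Another element, at +8.0 kb, held 381 fragments in 10.4% of cells (9.34% to 11.5%).

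Cebpb had the strongest distal element of all members. Cebpb (ENSMUSG00000056501.3), on the plus strand of chromosome 2 with its start at 167688915, had 1573 fragments at its promoter, 78.7 times the mean and percentile 85.2, in 35.4% of cells. The element at +88.6 kb (chr2:167774001-167779000) was 5000 bp long and held 3272 fragments in 56.1% of cells (54.4% to 57.9%), and its strongest bin was at percentile 98.9 of distal elements. It contains the starts of 2 transcripts of the noncoding gene Gm14321, and the nearest protein-coding main start was that of Cebpb itself. Elements at -8.8 kb, in an intron of Tmem189 (1175 fragments, 28.8% of cells), and at +76.5 kb (979 fragments, 24.0% of cells) followed.

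Cebpe had a pattern like that of Spib, with a weak start and a strong element nearby. Cebpe (ENSMUSG00000052435.7), on the minus strand of chromosome 14 with its start at 54712174, had 101 fragments at its promoter in 2.86% of cells, and its level of 5.05 times the mean (4.12 to 6.14) was just past the limit of 5. The call was lost with overlap counting (4.99), without the tenth of cells with the most fragments (4.88), in thinned cells (4.59) and with fragments shorter than nucleosomal DNA only (2.26). It was kept with 250 bp on either side of the start (6.11), and the level was 8.41 (7.18 to 9.78) in the strongest 1000 bp within 2 kb. The intergenic element at +6.2 kb (chr14:54705001-54707500) held 1311 fragments in 28.4% of cells (26.8% to 30.0%), with its strongest bin at percentile 97.0, and Cebpe was its nearest protein-coding gene. At +60.9 kb, in an intron of Acin1, an element held 585 fragments in 15.5% of cells (14.3% to 16.9%), and the start nearest to it was that of Cdh24. At +10.6 kb a further element held 339 fragments in 10.3% of cells. Upstream of the start, the bin at -2.08 kb held 268 fragments.

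At Cebpd and Cebpg the promoter was stronger than any distal element. Cebpd (ENSMUSG00000071637.5), on the plus strand of chromosome 16 with its start at 15887286, had 565 fragments at its promoter, 28.3 times the mean, in 14.8% of cells (percentile 63.7 of promoters). Its 3 distal elements held 60, 55 and 50 fragments in 1.77%, 1.74% and 1.38% of cells, each close to the limit of 50. Cebpg (ENSMUSG00000056216.9), on the minus strand of chromosome 7 with its start at 35056573, had the most open promoter of the members, with 2067 fragments, 103 times the mean and percentile 90.6, in 44.4% of cells, and the level was 192 times the mean with 250 bp on either side of the start. Its strongest element that was not also among the leading ones of Cebpa lay at +30.4 kb in an intron of Pepd, a peptidase gene, with 310 fragments in 9.01% of cells.

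Over the members, 6 of 7 promoters were open, against 59.9% of all 21670 protein-coding promoters, with a median of 28.3 times the mean against 12.5 over all promoters. By fragments the order was Cebpg, Cebpb, Cebpa, Cebpd, Spi1, Cebpe and Spib. The counting intervals of neighbors in this order did not overlap, except for Cebpe (82.3 to 123 fragments per kb) and Spib (51.9 to 85.1). With the strongest 1000 bp within 2 kb of each start, 6 of 7 were again open, against 63.6% of all promoters, and Spi1 moved above Cebpd (839 against 576 fragments).

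**Figure D3:**
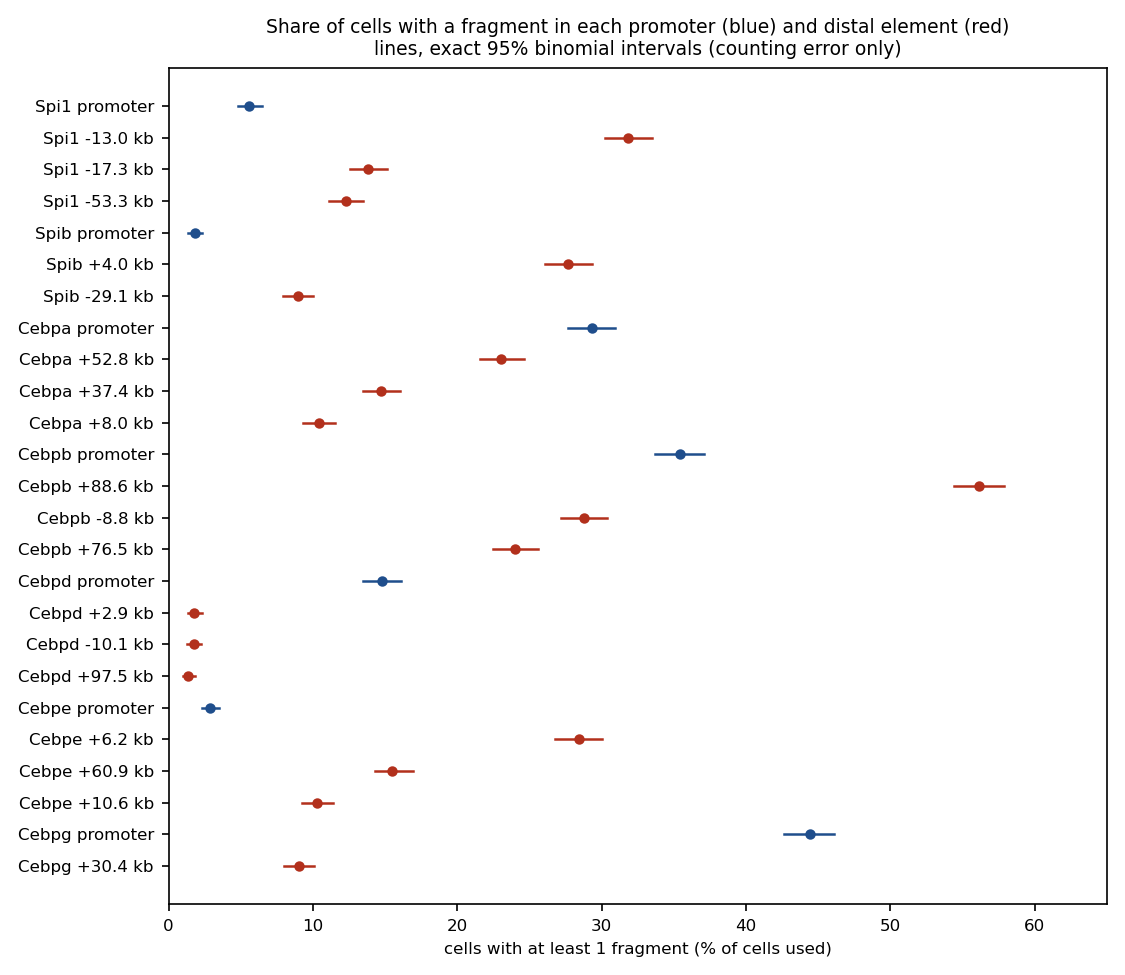
Percent of the 3108 cells with at least 1 fragment (horizontal axis) in the promoter of each member (blue) and in its leading distal elements (red), named by distance from the main start, with exact 95% binomial intervals as lines. Promoters lie above the distal elements at Cebpa, Cebpd and Cebpg, and below the leading one at Spi1, Spib, Cebpb and Cebpe. Promoters are 1000 bp and elements up to 5000 bp wide, and at Cebpb the order turned when the whole open element around the start, 7000 bp wide, was counted (58.6% against 56.1%).

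The share of cells with an element followed depth. The Spi1 upstream element was found in 18.6% of the tenth of cells with the fewest fragments (interval 14.5% to 23.4%, median 5534 fragments) and in 47.4% of the tenth with the most (41.7% to 53.1%, median 19714). The Cebpa downstream enhancer went from an interval of 6.07% to 12.7% to one of 24.0% to 34.4%, and the Cebpg promoter from 29.9% to 59.4%. With every cell thinned to 3000 fragments, the shares were 9.91% for the Spi1 upstream element, 4.70% for the Cebpa downstream enhancer and 16.3% for the Cebpg promoter. A cell without a fragment is thus not shown to have the element closed.

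Of the cells with a fragment in the Spi1 upstream element, 32.8% had 2 or more, and the highest number in a cell was 7. The shares were also compared between cells with more and less RNA at given depth. Cells were split within 10 classes of depth into 1558 with more RNA (median 4608.5 UMIs) and 1550 with less (3140.5). The share with the Spi1 upstream element was 31.1% and 32.6% (ratio 0.953, interval 0.840 to 1.08), and with the Cebpa downstream enhancer 15.6% and 13.9% (1.12, 0.932 to 1.36). The intervals of all 9 ratios, for the 7 promoters and these elements, included 1.

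The same elements were visible in barcodes that were not called as cells, which held 3525361 fragments. What these barcodes contain was not examined, so their level is given for comparison and is not a measured background. Scaled to 1000000 fragments, the Spi1 upstream element had 38.9 in cells and 24.7 in the other barcodes (19.8 to 30.4). The Cebpa downstream enhancer had 15.9 (14.6 to 17.2) and 9.36 (6.44 to 13.1), and the Cebpg promoter 55.7 (53.3 to 58.1) and 23.3 (18.5 to 28.9). At Cebpb and Cebpd the cells also stood above the other barcodes, with 42.4 against 16.7 and 15.2 against 5.96. At the weak promoters the intervals overlapped, with 5.12 against 3.69 at Spi1, 2.72 against 2.84 at Cebpe and 1.80 against 1.99 at Spib. A difference between cells and other barcodes at these starts was not detectable at this depth.

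**Figure D4:**
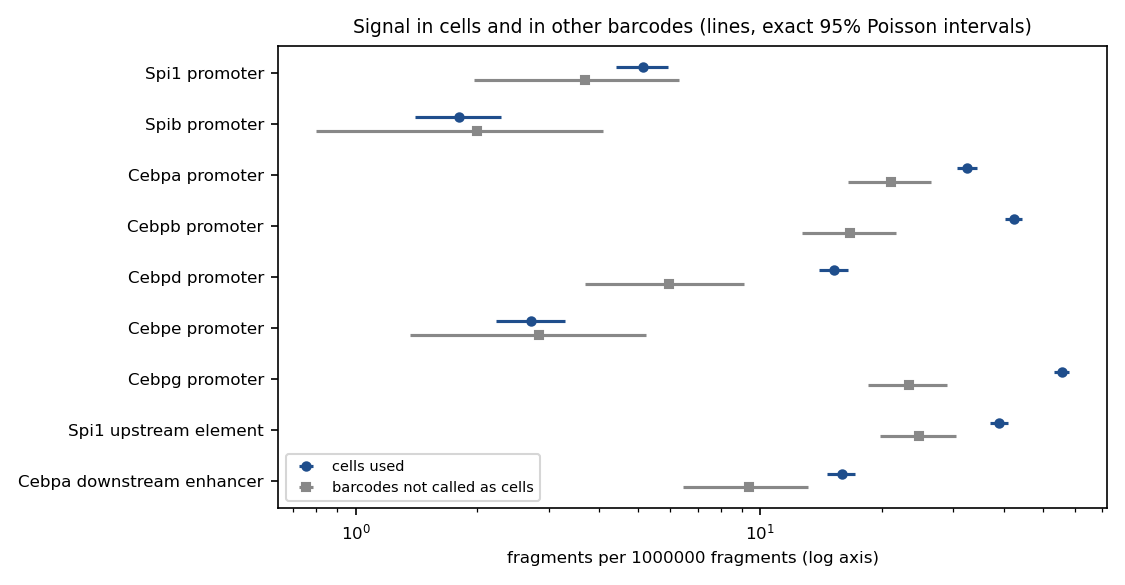
Fragments scaled to 1000000 fragments (horizontal log axis) in the cells used (blue circles) and in barcodes not called as cells (gray squares) for the 7 promoters, the Spi1 upstream element and the Cebpa downstream enhancer, with exact 95% Poisson intervals. The circles of the Cebpa, Cebpb, Cebpd and Cebpg promoters lie to the right of their squares, with 55.7 against 23.3 at Cebpg, and the intervals of the Spib and Cebpe promoters overlap.

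Next, it was asked whether elements were found in the same cells more often than depth alone gives. The expected number of cells with both was summed over 10 classes of depth, assuming independence within each. The Spi1 upstream element and the Spi1 promoter were found together in 65 cells, with 62.75 expected (ratio 1.04, interval 0.799 to 1.32). The Spi1 upstream element and the Cebpa downstream enhancer shared 159 cells, with 161.3 expected (0.986, 0.839 to 1.15). Over all 36 pairs of the 7 promoters and these elements, the median ratio was 1.025.

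In 1 of the 36 pairs the interval lay above 1, the Cebpe promoter with the Spi1 upstream element (46 cells, 32.39 expected, ratio 1.42, interval 1.04 to 1.89). In 1 pair it lay below, the Spi1 and Spib promoters (0 cells, 3.83 expected, ratio up to 0.964). No allowance was made for the number of pairs.

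The comparison was widened to 25 promoters and distal elements, using pairs with at least 10 cells expected. The median ratio was 1.04 over 27 pairs within a locus, 1.03 over 39 other pairs on the same chromosome and 1.01 over 181 pairs on different chromosomes. The interval lay above 1 in 3, 1 and 2 of these pairs (11.1%, 2.56% and 1.10%). Of the 3 within a locus, 2 involved the Cebpe promoter: it shared 46 cells with the +6.2 kb element (28.36 expected, ratio 1.62, 1.19 to 2.16) and 24 with the +10.6 kb element (10.47 expected, 2.29, 1.47 to 3.41). The third was the pair of Cebpb elements at +76.5 and +88.6 kb (481 cells, 435.6 expected, 1.10, 1.01 to 1.21).

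**Figure D5:**
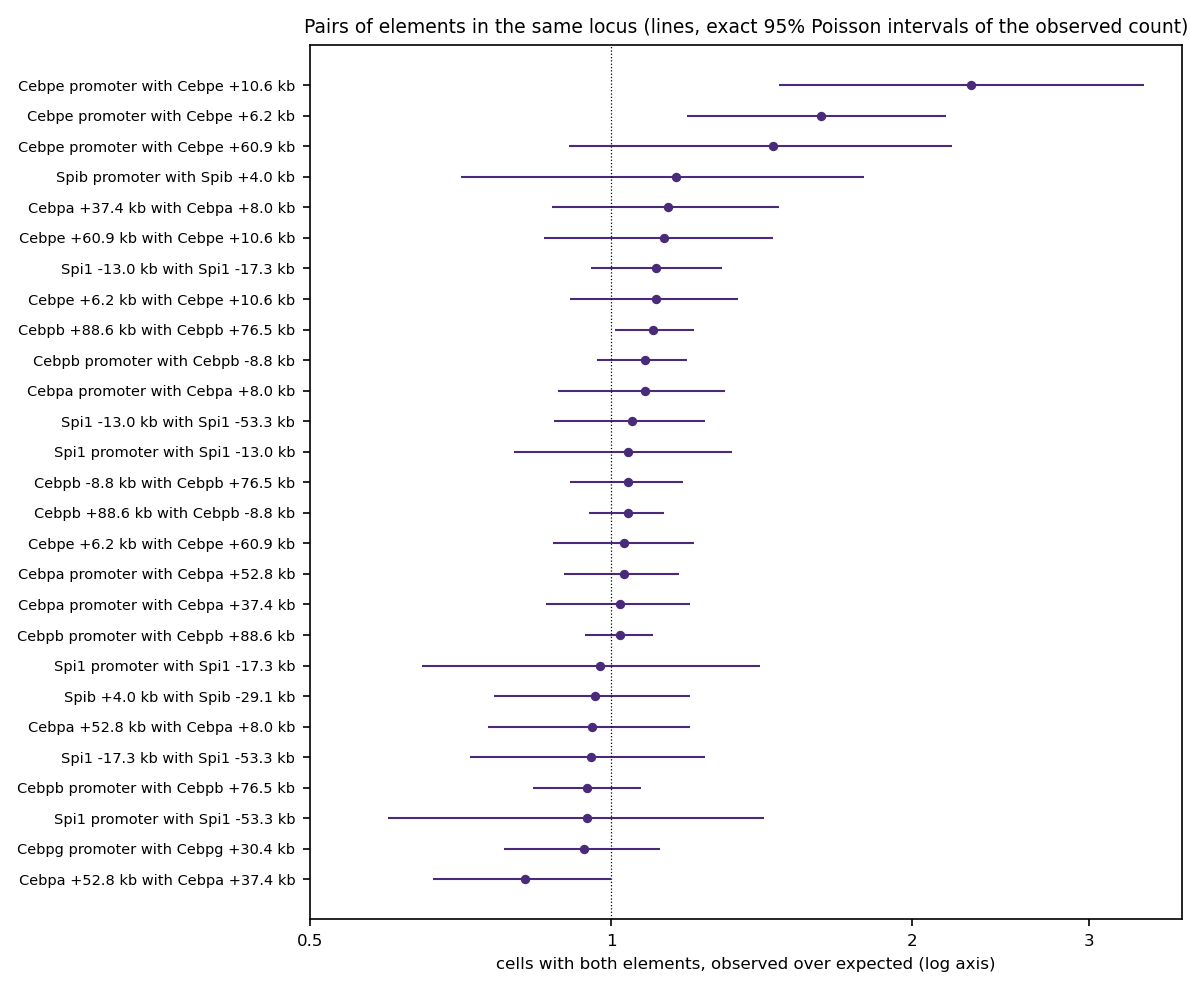
Cells with both elements over the number expected from depth (horizontal log axis) for the 27 pairs within a locus with at least 10 cells expected, with exact 95% Poisson intervals of the observed count as lines and a dotted line at 1. The Cebpe promoter pairs lie farthest to the right, at 2.29 and 1.62, and the median over the pairs is 1.04.

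At the Cebpd locus, below that limit, the promoter and the +2.9 kb bin, which are neighbors, shared 21 cells with 8.785 expected (ratio 2.39, 1.48 to 3.65), and the promoter and the +97.5 kb element shared 13 with 6.811 expected (1.91, 1.02 to 3.26). The intervals of the other 5 pairs below that limit within a locus, 4 of them at Cebpd, included 1. Counted per cell, 13.6% of cells had none of the 9 promoters and elements, 30.5% had 1, 29.1% had 2 and 17.5% had 3, and the highest number was 7, in 1 cell.

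Genes of the granulocyte and monocyte path, many of them targets of these factors, were mostly closed. Of 20 such promoters 4 were open (against 59.9% of all promoters), with a median of 1.95 times the mean against 12.5. The highest were Csf2rb (10.6) and Csf2ra (10.5), which encode chains of the GM-CSF receptor, and Cd14 (6.56), an endotoxin co-receptor. The lowest were the granule and secreted protein genes Fcnb with 4 fragments, S100a9 with 3 and Ctsg with 0 in 3108 cells. Taking 3 as the limit that a count of 0 allows, up to 0.0965% of cells would yield a fragment there at this depth, which is no limit on the cells with the site open. Mpo and Elane, which encode primary granule enzymes, stood at 2.15 and 1.75 times the mean.

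Partner and upstream factors gave the opposite picture, with 20 of 21 promoters open (95.2%, against 59.9% of all promoters) and a median of 71.6 times the mean against 12.5. Atf4 (223) and Ddit3 (171), stress-response factors of the wider leucine-zipper group, and Jun (168), an AP-1 subunit, were highest. Gfi1 (16.5), a repressor in granulocytes, and Irf4 (15.7), a partner of PU.1, were the lowest of the open ones, at percentiles 54.1 and 53.2 of all promoters, and the main annotated start of Erg was closed, with 1 fragment. Other starts of Erg were not examined. Runx1, whose product binds the RUNX string, stood at 71.6 times the mean.

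Fragments on the promoters of the marker and pathway lists were also counted in cells with each member element. The expected number was taken from all cells of the same depth classes, those with the element included. Over 54 pairs of list and element the median ratio of observed to expected fragments was 1.03. The interval, with its limits as rounded, lay above 1 in 6 pairs. It lay below 1 in 1 pair, the B cell list in cells with the Spi1 promoter (12 fragments, 26.18 expected, 0.458, 0.237 to 0.801). Cells with the Spi1 upstream element held 410 fragments on the granulocyte and monocyte promoters, with 422.5 expected at their depth (ratio 0.970, 0.879 to 1.07), and cells with the Cebpa downstream enhancer held 193, with 202.7 expected (0.952, 0.822 to 1.10). Cells with the Cebpe promoter held 42, with 40.74 expected (1.03, 0.743 to 1.39). Of the 6 pairs above 1, the highest ratio was that of the T and NK cell list in cells with the Spi1 upstream element (211 fragments, 182.0 expected, 1.16, 1.01 to 1.33). The other 5 were the partner factors in cells with the Spi1, Cebpa, Cebpb and Cebpd promoters or the Cebpa downstream enhancer, with ratios from 1.03 to 1.05. For the partner factors with the Cebpe promoter, the Cebpg promoter or the Spi1 upstream element, the lower limit rounded to 1. The same held for the T and NK cell list with the Cebpb promoter. Such pairs were not counted as above 1, so rounding alone parts them from those named. No allowance was made for the 54 pairs. The intervals treat fragments as independent, although a cell can hold many. The partner list had 34888 fragments in 3107 cells, so its narrow intervals may overstate the precision.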

How the data were processed

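The ATAC fragments and barcode table of 1 preparation of HSCs were used. Per the file headers and the study's methods, the authors mapped reads to mm10 by Cell Ranger ARC 2.0.2, which joins duplicate read pairs into 1 fragment and uses both modalities to call cells. The authors deposited raw counts (fragments, read pairs and UMIs per barcode, and read pairs per fragment), with no normalization, and a call of 0 or 1 for each barcode as a cell. Reads behind a fragment carry no molecular identifier. The antibody tag matrix and RNA counts per gene were not used here, and doublets were kept.

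Fragments of 3108 called cells with more than 3000 fragments in peaks were counted on chromosomes 1 to 19 and X where a cut end lay in an interval, once per interval. Gene models were GENCODE vM21 on GRCm38, whose chromosome lengths held every fragment. The main start of a gene was that of its principal isoform by APPRIS, then by support level and length, and a promoter was 500 bp on either side. Elements, open bins and expected cells are defined with the results. Analysis ran in Python 3.11.15 with numpy, scipy 1.17.1 and pandas 2.3.3. Depth sets the precision: an interval of 1000 bp held between 67 and 2067 fragments at the member promoters.

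The genes and elements named follow 1 rule. It takes the members, with the promoter and the 3 distal elements with the most fragments in each locus. By strongest bin, the order within a locus can differ. The rule also takes the Spi1 and Cebpa elements from set distances, and the 3 highest and 3 lowest promoters of each gene list. Runx1, Mpo and Elane, the Cebpd bin and elements shown by sequence were chosen after their values were seen. 1 distal element of the Spib locus that the rule would name is not reported here. The members and lists were chosen with earlier results of these data known. Counting and interval steps were tested on simulated data. Alternatives were the counting rule, the cells, fragment length, thinning to 3000 fragments, the fold limit, the bin grid, the flank, the promoter width and the depth classes.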

Additional observations from a re-analysis of the deposited data

How the results depend on the processing

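With 1 preparation, no alternative speaks to variation between mice. The shares of cells depended on depth and on the fragments counted: the Spi1 upstream element was in 27.0% of all called cells, in 30.1% without the tenth of cells with the most fragments, in 18.5% with fragments shorter than nucleosomal DNA only and in 9.91% after thinning to 3000 fragments, and the Cebpa downstream enhancer in 12.5%, 13.2%, 8.40% and 4.70%. Midpoint counting moved neither share beyond its interval. The ratio of the Spi1 upstream element to the Spi1 promoter was 6.72 with midpoint counting, 8.85 with fragments shorter than nucleosomal DNA only and 1.10 with the promoter as the strongest 1000 bp within 2000 bp of the start, an alternative chosen after seeing the data, as were depth classes of fragments in peaks. The open bins numbered 490 at 3 times the mean, 175 at 10 times and 193 with a flank of 50 kb, where the loci hold 1452 bins. Between 4 and 7 member promoters were open over all alternatives, 7 at 3 times the mean and 4 at 10 times. Promoter levels moved beyond their intervals in 23 of 56 values: with 250 bp on either side of the start, Cebpg stood at 192, Cebpb at 130 and Cebpa at 106 times the mean, and with fragments shorter than nucleosomal DNA only Cebpg stood at 172 and Spib at 1.59. Apart from the promoter levels, the other values of the 8 main results, 49 of 63, stayed within the interval or within 1.5 times the count. Both counts of cells with 2 elements stayed within their intervals under every alternative run, with ratios from 0.861 to 1.25 and from 0.946 to 1.01. No paired analysis was possible because there is 1 sample per group.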
